A study of Homo sapiens with 8 samples.

Results

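The 34 genes described here work in G2 and mitosis, the last stretch of the cell cycle, and were chosen by name from a list. The choice was made with earlier results of these data known, so the direction of the set is no independent evidence. All 34 are among the 19447 gene symbols of the count table. They were followed in K562, a human leukaemia cell line with erythroid features, labelled as wild type and grown with or without Lip-1. In common use Lip-1 stands for liproxstatin-1, which blocks lipid peroxidation and ferroptosis. The 4 treated libraries, all labelled Day 1 and 24 h of Lip-1, divide by dose into 3 at 10 µM, which carry the replicate numbers 2 to 4, and 1 at 20 µM, which carries the number 1. That dose rests on the treatment label of a single library, with no second library to check it. The 4 control libraries (numbers 1 to 4, 0 µM) came from cells without Lip-1 and were labelled Day 0, so treatment and day cannot be told apart. The labels name no vehicle and do not say whether replicates were separate cultures, so p-values measure the spread between these libraries. RNA was total RNA depleted of ribosomal RNA and copied with random primers.

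Entry into mitosis is driven by CDK1 bound to cyclins A and B, which is held back by WEE1-type kinases and released by CDC25 phosphatases. Aurora and polo kinases then build the spindle, and the spindle checkpoint holds the anaphase-promoting complex inactive until kinetochores are attached. CDC20 turns that complex on, securin and cyclin B are destroyed, and the cell divides. Most of these genes are transcribed late in the cycle, from promoters that often carry a cell cycle genes homology region (CHR), contacted by MuvB complexes with B-MYB and FOXM1 or with E2F4 and p130, and CCAAT boxes, bound by NF-Y.

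Promoter windows from RefSeq (GRCh38.p14, 250 bases before to 50 after a transcript start, 300 bases in all) were found for 28 of the 34 genes. AURKA, TTK, UBE2C, BIRC5, TPX2 and FOXM1 had none. A pair of patterns was searched on both strands, the CHR as TTTGAA or TTCGAA and the CCAAT box as CCAAT. Overlapping matches were each counted, as in HMMR, PTTG1 and MKI67. A CHR match lay in a window of 19 of the 28 genes (67.9%), against 19.5% of the 27305 genes with a window. A CCAAT match lay in 23 (82.1%), against 39.7% of all. At least 2 CCAAT matches together with a CHR were in 13 (46.4%), against 2.35% of all. A match describes letters in the window and is not evidence of binding.

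The 200 bases before the start are shown for selected genes, with CHR and CCAAT matches of either strand in capitals. CDC20 (chr1:43358781-43358980, plus strand), PLK1 (chr16:23678689-23678888, plus strand) and CCNB1 (chr5:69166950-69167149, plus strand) were lower in treated cells, CDC25C (chr5:138331805-138332004, minus strand) was higher, and CCNB2 (chr15:59104946-59105145, plus strand) carries the textbook arrangement of spaced CCAAT boxes followed by a CHR.
CDC20: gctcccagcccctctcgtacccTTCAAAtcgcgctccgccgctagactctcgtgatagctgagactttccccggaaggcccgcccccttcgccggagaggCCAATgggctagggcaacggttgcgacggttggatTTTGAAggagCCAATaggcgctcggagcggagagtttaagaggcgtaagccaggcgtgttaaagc
PLK1: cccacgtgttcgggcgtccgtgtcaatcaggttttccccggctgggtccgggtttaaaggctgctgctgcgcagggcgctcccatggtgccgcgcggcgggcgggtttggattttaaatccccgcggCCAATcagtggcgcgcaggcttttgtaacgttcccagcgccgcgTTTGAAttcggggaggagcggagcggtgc
CCNB1: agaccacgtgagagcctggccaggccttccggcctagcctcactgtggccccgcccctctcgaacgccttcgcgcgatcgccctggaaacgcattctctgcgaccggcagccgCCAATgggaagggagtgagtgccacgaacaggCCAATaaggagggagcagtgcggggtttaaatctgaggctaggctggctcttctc
CCNB2: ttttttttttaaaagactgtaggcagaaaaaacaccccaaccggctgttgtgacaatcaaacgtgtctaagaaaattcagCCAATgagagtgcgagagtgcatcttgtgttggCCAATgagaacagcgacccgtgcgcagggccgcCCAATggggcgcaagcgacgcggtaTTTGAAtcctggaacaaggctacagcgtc
CDC25C: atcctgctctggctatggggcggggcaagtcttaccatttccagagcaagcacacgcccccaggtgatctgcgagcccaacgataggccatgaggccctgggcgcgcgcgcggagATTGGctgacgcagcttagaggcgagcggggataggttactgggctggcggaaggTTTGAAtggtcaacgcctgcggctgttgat

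In CCNB2 and PLK1 the CHR began 29 bases before the start, and in CDC25C 30 bases before it, and the nearest CCAAT match lay upstream of it, at 54 bases in CCNB2, 73 in PLK1 and 85 in CDC25C. CDC20 held a CHR at 65 bases between CCAAT matches at 100 and 55 bases, and a reverse-strand CHR at 178. CCNB1 held CCAAT matches at 87 and 55 bases and no CHR match. The CDC25C window shown is 1 of 4 for that gene. A second one overlaps it and holds the same CHR, and the remaining pair holds neither match. A CHR and a CCAAT match in 1 window were found for 17 of the 28 genes (60.7%), against 7.85% of all. Genes with both matches stood at both ends of the response described below, with PLK1 and CDC20 the most negative of the 34 at 10 µM and CDC25C the most positive. CCNB1, without a CHR match, came next to PLK1 and CDC20 at -0.74. Whether the matches go with the response was not tested.

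**Figure D1:**
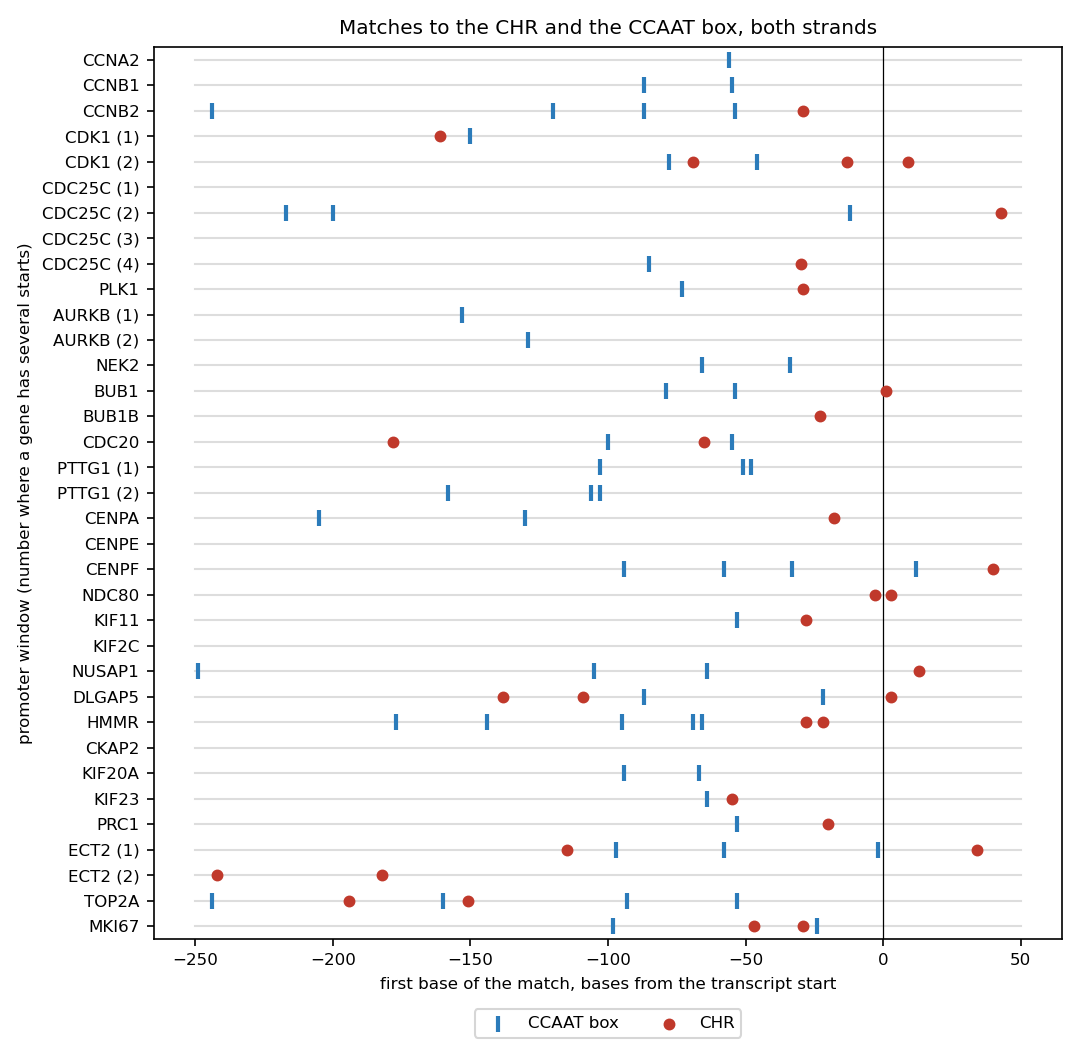
Positions of CHR (red) and CCAAT (blue) matches, both strands, in the 35 promoter windows of 28 genes, in bases from the transcript start. Most CCAAT matches lie between 120 and 30 bases before the start, CHR matches fall on both sides of the start, and CENPE, KIF2C and CKAP2 have neither.

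In control cells the genes spanned a wide range. Levels are given as CPM, a gene's count relative to the library's total after TMM scaling, and here per kilobase of annotated exon so that genes can be compared. CDC20, the activator of the anaphase-promoting complex, stood highest at 132 ± 19.5 CPM per kb (SD, n = 4), followed by cyclin B1 (CCNB1) at 121 ± 26.2. TPX2, which activates Aurora A on spindle microtubules, had 118 ± 26.7 CPM per kb, topoisomerase II alpha (TOP2A) 117 ± 35.9 and cyclin A2 (CCNA2) 110.1 ± 17.3. Neighbours in this order differ by less than 1 SD. At the low end were the rhoGEF ECT2 at 10.6 ± 1.14, the midzone kinesin KIF23 at 9.33 ± 1.88, the phosphatase CDC25C at 5.09 ± 0.570 and the ubiquitin-conjugating enzyme UBE2C at 1.02 ± 0.310 CPM per kb. ECT2 and KIF23 differ by less than their summed SDs, while CDC25C and UBE2C lie below the genes above them by more than the summed SDs. The length used joins all annotated exons of a gene. Per kb of the longest transcript, KIF23 stood above ECT2 (16.5 and 13.2 CPM) and TOP2A above TPX2 (131 and 118 CPM). CDC20 stayed highest and UBE2C lowest. UBE2C had 38 to 526 counts per library, the fewest of the 34, so its values carry more counting error than the rest. GENCODE also names 4 genes as its pseudogenes. Whether reads were lost to them was not tested, so its place at the bottom is uncertain.

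**Figure D2:**
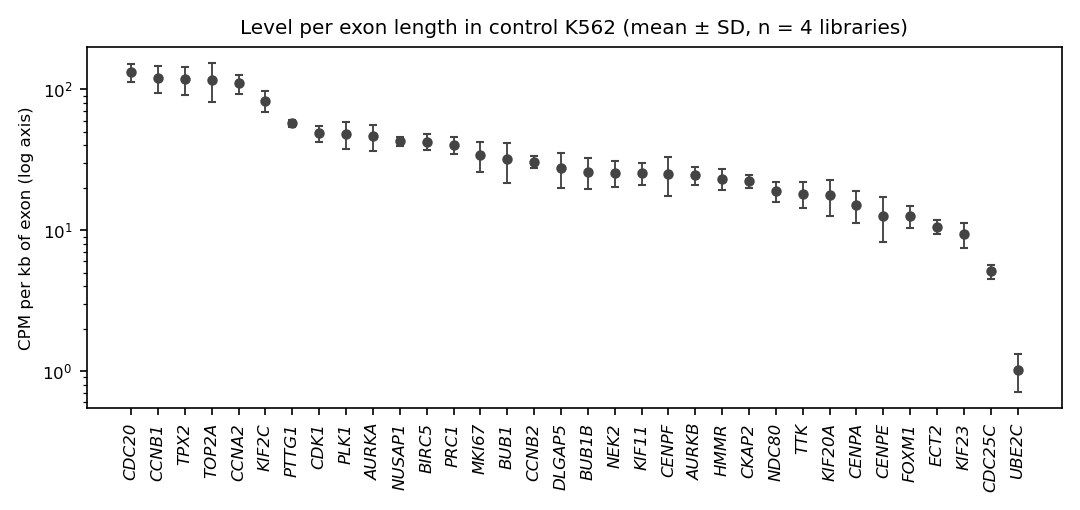
Mean level of each gene in the 4 control libraries, as TMM-scaled CPM per kb of exon on a log axis, with bars for SD. Levels fall from 132 CPM per kb for CDC20 to 5.09 for CDC25C and 1.02 for UBE2C.

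Total counts were 71151415 to 141307169 per library. All 10 K562 markers, including globins and GATA1, stood above 1 CPM in every library, with a summed level of 3127 to 5114 CPM in treated and 5318 to 8088 CPM in control libraries. Lymphocyte markers summed to 6.19 to 22.4 CPM in treated and 14.4 to 17.2 CPM in control libraries, nearly all of it CD3D, with 4 of the 6 markers under 1 CPM in every library. Monocyte and granulocyte markers summed to 19.0 to 99.5 CPM in treated and 19.8 to 127 CPM in control libraries, nearly all of it LYZ, with ELANE at 0 in every library. Fibroblast and epithelial markers summed to 27.3 to 42.6 CPM in treated and 32.3 to 61.4 CPM in control libraries, mostly EPCAM. The part of these differences in the results below was not tested. Counts may not be strand-specific, since no source states it. GENCODE exons of other genes overlap 62.2% of NUSAP1 and 58.4% of PRC1, 15.9% of FOXM1, 12.5% of PLK1 and 10.2% of BUB1B, so those values may hold reads of a neighbour.

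The 34 genes together took 0.456%, 0.647%, 0.616% and 0.493% of the counts in control libraries 1 to 4, then 0.498%, 0.497% and 0.482% in the 10 µM libraries and 0.251% in the 20 µM library. The 10 µM libraries therefore lay within the control range, and only the 20 µM library lay below all controls. Controls 2 and 3 were above controls 1 and 4 for 31 of the 34 genes (91.2%), against 30.6% of the 13101 genes tested, with a median difference of 0.44 on the log2 scale. UBE2C, PTTG1 and ECT2 were the exceptions. CDKN1A, which encodes the CDK inhibitor p21, ran the other way in the same libraries, with 17.2, 5.32, 5.79 and 15.8 CPM in controls 1 to 4. The submitters' names for the libraries divide in the same way, since controls 2 and 3, like the same numbers at 10 µM, are named by digits and all others by letters. Within the letter-named libraries the median treated minus control difference over the 34 genes was -0.46 on the log2 scale (31 genes negative), and within the digit-named ones -0.41 (32 negative). The letter-named treated libraries are the 20 µM library and 10 µM replicate 4, while the digit-named ones are at 10 µM only. Relative to the control mean, the median over the 34 genes was -1.10 in the 20 µM library and -0.25 in 10 µM replicate 4. Letter-named controls 1 and 4 stood at -0.28 and -0.19. The median was -0.19 and -0.22 in 10 µM replicates 2 and 3, and 0.21 and 0.23 in controls 2 and 3.

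**Figure D3:**
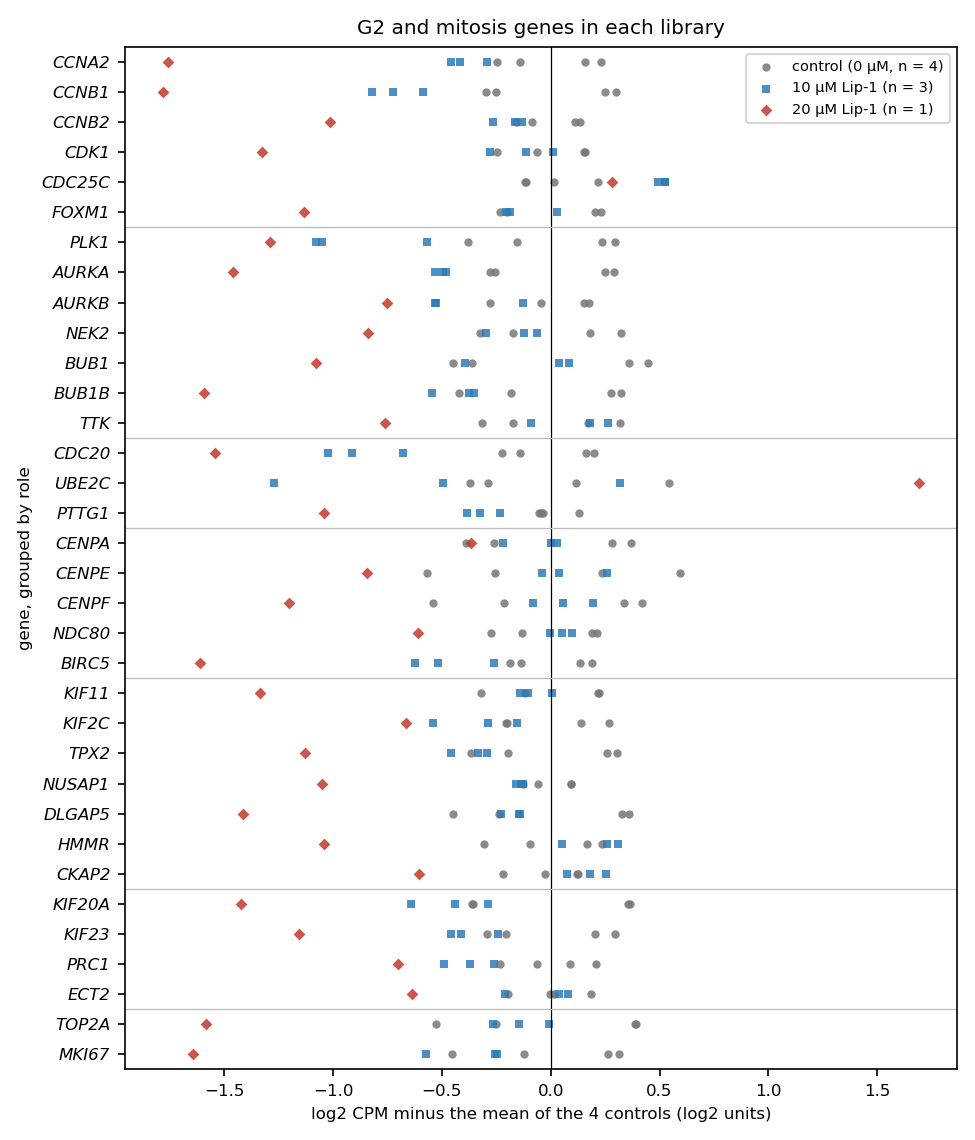
Log2 CPM of each gene in each library minus the mean of the 4 controls, grouped by role (grey, control; blue, 10 µM; red, 20 µM). The 20 µM library lies left of every control for 31 genes, controls fall into a lower and a higher pair, and CDC25C alone has all its treated libraries to the right of the controls.

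Across all treated and control libraries, Lip-1 libraries held less CDC20, PLK1 and CCNB1 RNA, from genes that act at mitotic entry and at the start of anaphase. These 3 of 34 genes fell and 0 rose, where 6.69% of the 13101 genes tested fell and 7.47% rose, 14.2% in all. That share of the 34 is near that of all genes. Over the 34 genes the median log2 fold change was -0.39, against 0.084 over all genes tested, and 31 were negative and 3 positive. CDC20 (chromosome 1, 43358955 to 43363203, plus strand, GENCODE 29 on GRCh38) had 167, 132 and 142 CPM at 10 µM and 91.9 CPM at 20 µM, against 243, 299.7, 307 and 229 CPM in controls (log2 fold change -1.02 ± 0.19 (SE), edgeR adjusted p = 0.0183). PLK1, the polo-like kinase of centrosomes and kinetochores (chromosome 16, 23677656 to 23690367, plus strand), had 152, 107 and 109 CPM at 10 µM and 92.4 CPM at 20 µM, against 203, 277, 266 and 173 CPM in controls (log2 fold change -0.997 ± 0.21 (SE), edgeR adjusted p = 0.022). CCNB1 (chromosome 5, 69167010 to 69178245, plus strand) had 185, 172 and 203 CPM at 10 µM and 88.5 CPM at 20 µM, against 248, 361, 374 and 256 CPM in controls (log2 fold change -0.94 ± 0.26 (SE), edgeR adjusted p = 0.0466). For all 3 genes every treated library lay below every control, and the 20 µM library was the lowest. CDC25C, whose treated libraries all lay above the controls, had a log2 fold change of 0.45 (adjusted p = 0.0628) and did not pass. It passed with upper-quartile scaling (0.0416), a filter of 1 CPM in 4 libraries (0.0435), DESeq2 (0.0136), the naming pattern as a covariate (0.0292) and without the 20 µM library (0.0201), and over all alternatives its adjusted p was 0.0136 to 0.16.

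In bulk RNA fewer cells in G2 and mitosis and less RNA per such cell cannot be told apart, here and in all that follows. The treated range also lay wholly below the control range for CCNA2, AURKA, PTTG1, BIRC5 and PRC1, which makes 8 of 34 genes against 14.4% of all genes tested, and wholly above it for CDC25C alone, against 13.6%. With the replicate number as a block, since same-numbered libraries deviated together, 12 of the 34 genes fell and 0 rose, where 10.4% of all genes fell, and the additions were AURKA, BIRC5, BUB1B, KIF20A, KIF23, KIF2C, MKI67, PRC1 and TPX2. Within same-numbered pairs, 22 of the 34 genes were lower in 4 of 4 pairs (64.7%), against 24.3% of all genes tested, and in 3 of 3 pairs at 10 µM 22 were lower, against 29.4%. Calls without the block depended on single libraries. CDC20 lost its call without control 2, control 3 or 10 µM replicate 4 (edgeR adjusted p = 0.0641, 0.073 and 0.0543), and PLK1 without control 2, control 3, 10 µM replicate 3 or 10 µM replicate 4 (0.0717, 0.0804, 0.051 and 0.0663). CCNB1 kept its call only without the 20 µM library, with adjusted p from 0.0542 to 0.139 without any other. Without the 20 µM library 9 genes were called, 1 was without 10 µM replicate 3, and 0 were without control 2, control 3 or 10 µM replicate 4.

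**Figure D4:**
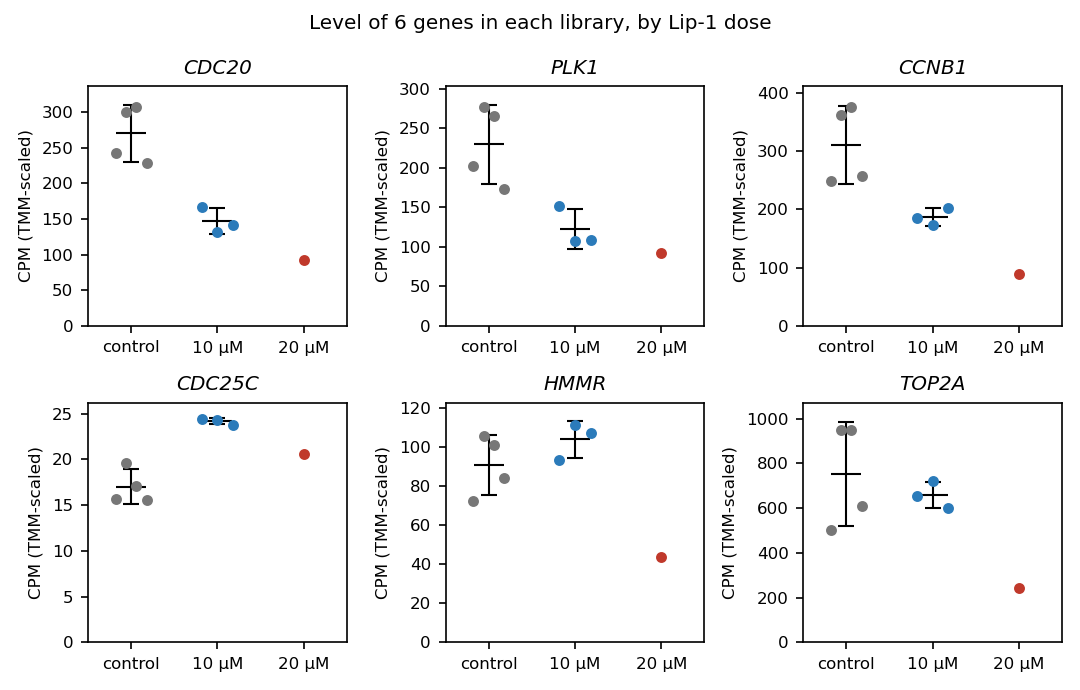
TMM-scaled CPM of 6 genes in each library by dose, with mean and SD for control (n = 4) and 10 µM (n = 3) and the single 20 µM library. CDC20, PLK1 and CCNB1 are already below the controls at 10 µM, CDC25C is above them, and HMMR and TOP2A are below them only at 20 µM.

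At 10 µM, cyclins and the genes that control CDK1 did not move as one. Cyclin B1 fell, CDC25C rose and the other 4 genes did not pass the test. In this comparison 6 of all 34 genes fell and 1 rose, where 9.79% of the 14857 genes tested fell and 9.34% rose, 19.1% in all. Taken in both directions, that share of the 34 is near that of all genes. With the replicate block 16 fell and 1 rose (15.2% and 16.2% of all genes). The 7 calls became 12 when control 1 was left out, 4 without control 2, 3 without control 3, 1 without 10 µM replicate 3 and 2 without 10 µM replicate 4. The 10 µM range lay wholly below the controls for the same 8 genes as above and wholly above them for CDC25C, against 17.4% and 17.5% of all genes. CCNB1 averaged 187 ± 15.2 CPM at 10 µM and 310.0 ± 67.1 CPM in controls (SD, n = 3 and 4), or 60.2% of the control mean (log2 fold change -0.74 ± 0.17 (SE), edgeR adjusted p = 0.0175), and lost its call without 10 µM replicate 3 (adjusted p = 0.0635). CDC25C, the phosphatase that removes the inhibitory phosphates of CDK1, had 24.4, 24.3 and 23.8 CPM at 10 µM, against 15.7, 19.6, 17.1 and 15.6 CPM in controls. Its 10 µM libraries differed by less than 1 CPM and all lay above every control (log2 fold change 0.50 ± 0.13 (SE), edgeR adjusted p = 0.0262). Its call held with the block (adjusted p = 0.0158) but was lost without control 3, control 4 or any 10 µM library (0.0586 to 0.0856).

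Cyclin A2 (CCNA2), the partner of CDK2 and CDK1 in S phase and G2, had 228, 249 and 222 CPM at 10 µM, against 257, 340.3, 358 and 277 CPM in controls. The groups did not overlap, but the difference of -0.41 (adjusted p = 0.0641) missed the threshold in edgeR. CCNA2 did pass with the block (adjusted p = 0.0047), with a filter of 1 CPM in 4 libraries (0.0437), in DESeq2 (0.0178) and with the naming pattern as a covariate (0.00701). Cyclin B2 (CCNB2) averaged 75.2 ± 3.61 CPM at 10 µM and 85.8 ± 8.63 CPM in controls, and CDK1 175 ± 17.7 CPM at 10 µM and 192 ± 25.2 CPM in controls (edgeR adjusted p = 0.24 and 0.514). FOXM1, the transcription factor of late cell cycle genes, averaged 56.3 ± 5.22 CPM at 10 µM and 61.7 ± 10.6 CPM in controls (adjusted p = 0.571). All 3 ranges overlapped those of their controls. Of the partners of CDK1, cyclin B1 alone was called at 10 µM by edgeR's main test, the one without block, covariate or changed filter. A test of the difference between genes was not made.

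Among the 7 mitotic kinases and checkpoint genes, PLK1 and AURKA fell at 10 µM. PLK1 averaged 123 ± 25.6 CPM at 10 µM and 229.8 ± 49.9 CPM in controls, or 53.4% of the control mean (log2 fold change -0.91 ± 0.20 (SE), edgeR adjusted p = 0.0142). The call was lost without 10 µM replicate 3 or 4 (adjusted p = 0.0623 and 0.0582), and replicate 2 was the highest of the 10 µM libraries. AURKA, the kinase of spindle poles, had 94.5, 95.3 and 92.1 CPM at 10 µM, against 109.6, 158, 163 and 111 CPM in controls (log2 fold change -0.53 ± 0.16 (SE), edgeR adjusted p = 0.0477). Its 10 µM libraries lay close together under 2 low and 2 high controls, and the call was lost without control 2, control 3 or any 10 µM library (0.08 to 0.119). AURKB, the kinase of the chromosomal passenger complex, had a log2 fold change of -0.40 (adjusted p = 0.0981) and passed with the block (adjusted p = 0.0299) and with the naming pattern as a covariate (0.0213). BUB1B, a subunit of the mitotic checkpoint complex, had -0.46 (adjusted p = 0.112) and passed with the block (adjusted p = 0.00292), with the naming pattern as a covariate (0.0089) and in DESeq2 (0.0449). The checkpoint kinase BUB1 averaged 175 ± 30.0 CPM at 10 µM and 192 ± 60.9 CPM in controls. TTK, the kinase that starts checkpoint signalling, averaged 89.1 ± 11.1 CPM at 10 µM and 83.0 ± 16.9 CPM in controls. The centrosomal kinase NEK2 averaged 69.9 ± 5.74 CPM at 10 µM and 79.2 ± 16.4 CPM in controls. These 3 overlapped their controls and passed in neither fit.

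Of the 3 genes grouped under the anaphase-promoting complex and its substrates, CDC20 and PTTG1 fell at 10 µM. CDC20 averaged 147 ± 18.3 CPM at 10 µM and 269.7 ± 39.6 CPM in controls, 54.5% of the control mean (log2 fold change -0.88 ± 0.14 (SE), edgeR adjusted p = 0.00477), and was the only 1 of the 7 calls that held without each library in turn (adjusted p at most 0.0266). PTTG1, or securin, the inhibitor of separase, had 88.4, 92.1 and 98.0 CPM at 10 µM, against 113, 111, 126 and 112 CPM in controls (log2 fold change -0.32 ± 0.093 (SE), edgeR adjusted p = 0.042). Its controls varied least of all 34 genes relative to their mean, with control 3 apart at the top, yet the call was lost without any library other than the 20 µM one (0.0547 to 0.109). UBE2C, the complex's first ubiquitin-conjugating enzyme, had 1.58, 0.524 and 0.90 CPM at 10 µM, against 1.85, 1.37, 1.04 and 0.980 CPM in controls, which overlap widely at this low level.

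Of the 5 centromere and kinetochore genes, BIRC5 fell at 10 µM and the 10 µM libraries of the others lay within the control range. BIRC5, or survivin, a subunit of the chromosomal passenger complex, had 135, 113 and 105 CPM at 10 µM, against 147, 184, 177 and 142 CPM in controls (log2 fold change -0.47 ± 0.13 (SE), edgeR adjusted p = 0.0389). The groups did not overlap, and the call was lost without control 2, control 3 or 10 µM replicates 3 or 4 (0.0931 to 0.125). The centromeric histone CENPA averaged 28.1 ± 2.56 CPM at 10 µM and 30.0 ± 7.74 CPM in controls. The kinetochore motor CENPE averaged 121 ± 13.3 CPM at 10 µM and 119.7 ± 42.3 CPM in controls. CENPF, a large protein of the outer kinetochore, averaged 296 ± 28.2 CPM at 10 µM and 295 ± 89.1 CPM in controls. NDC80, which binds microtubules, averaged 69.8 ± 2.43 CPM at 10 µM and 68.2 ± 11.2 CPM in controls. For CENPA, CENPE, CENPF and NDC80 the log2 fold changes were -0.10, 0.018, 0.0038 and 0.031, near 0 beside SEs of 0.20, 0.25, 0.22 and 0.13, and the signs of CENPE, CENPF and NDC80 turned with the block (-0.11, -0.13 and -0.047).

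None of the 7 motors and spindle proteins, 4 midzone genes or 2 genes of mitotic chromosomes passed edgeR's main test at 10 µM. That test used all 8 libraries and TMM scaling, with no block, covariate or changed filter. With the block 7 of these 13 passed, all lower. With the naming pattern as a covariate KIF2C, TPX2, KIF20A, KIF23, PRC1 and MKI67 passed, all lower (edgeR adjusted p = 0.00556 to 0.0144). PRC1 also passed with a filter of 1 CPM in 4 libraries (0.0441) and in DESeq2 (0.0191). TPX2 averaged 326 ± 19.4 CPM at 10 µM and 427 ± 96.2 CPM in controls (log2 fold change -0.39, edgeR adjusted p = 0.142, adjusted p with the block 0.0047). The microtubule depolymerase KIF2C had -0.34 (adjusted p with the block 0.0115). HMMR, a spindle-associated protein, averaged 104 ± 9.55 CPM at 10 µM and 91.0 ± 15.3 CPM in controls, and CKAP2, another, 114 ± 6.92 CPM at 10 µM and 101 ± 11.1 CPM in controls. Both fold changes were positive (0.19 and 0.16 on the log2 scale) and neither passed. KIF11, the motor that pushes spindle poles apart, and the microtubule bundlers NUSAP1 and DLGAP5 had log2 fold changes of -0.10, -0.15 and -0.22. They passed in none of these fits. PRC1, which bundles midzone microtubules, had 184, 171 and 157 CPM at 10 µM, against 188, 235, 255 and 212 CPM in controls, with no overlap (log2 fold change -0.38 ± 0.12 (SE), edgeR adjusted p = 0.0596, adjusted p with the block 0.00633). The midzone kinesins KIF20A and KIF23 had log2 fold changes of -0.50 and -0.40 (adjusted p with the block 0.00555 and 0.0136), and ECT2, which activates RhoA at the division site, -0.036 (adjusted p with the block 0.604). MKI67, the Ki-67 protein of the mitotic chromosome surface, had 358, 356 and 286 CPM at 10 µM, against 311, 528, 510.3 and 390.3 CPM in controls (log2 fold change -0.39, adjusted p with the block 0.00186). TOP2A had 654, 720.3 and 602 CPM at 10 µM, against 502, 949, 949 and 609 CPM in controls (log2 fold change -0.20, adjusted p with the block 0.0394). All 10 µM libraries of TOP2A lay between control 1 and controls 2 and 3, and for MKI67 replicate 4 lay below every control.

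**Figure D5:**
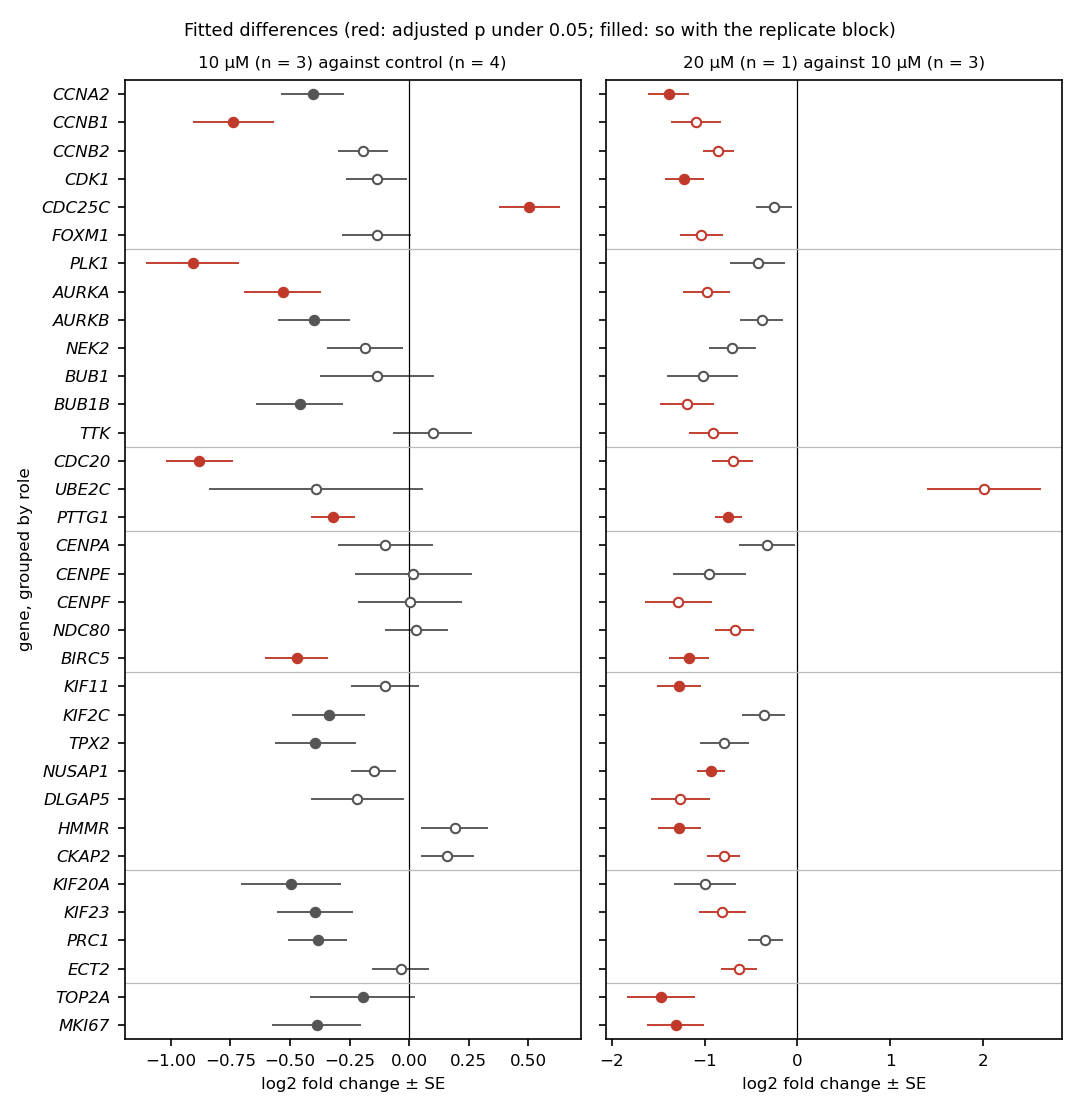
Log2 fold change ± SE of each gene from the 3-dose fit, 10 µM against control (left) and 20 µM against 10 µM (right), red where the adjusted p is under 0.05 and filled where it is so with the replicate block. CDC20, PLK1 and CCNB1 stand out on the left, and TOP2A, CCNA2 and MKI67 lead a broad shift on the right. Horizontal scales differ.

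At 20 µM almost the whole set was lower than at 10 µM. This rests on 1 library whose spread is assumed to be like that of the others, and the difference has no replicate check. That library is letter-named, while 10 µM replicates 2 and 3 are digit-named, so dose and naming pattern are partly mixed. Among controls, digit-named libraries lay above letter-named ones by a median of 0.44 on the log2 scale over the 34 genes. The fold changes below without the block take no account of it. Of the 34 genes 22 fell and 1 rose, where 14.6% of the 14857 genes tested fell and 11.7% rose, 26.3% in all. The median log2 fold change was -0.92, against 0.0088 over all genes tested. The 20 µM library lay below every 10 µM library for 33 genes, against 39.5% of all genes, and below every control for 31, against 37.9%. With the replicate block 9 genes fell (CCNA2, CDK1, PTTG1, BIRC5, KIF11, NUSAP1, HMMR, TOP2A and MKI67) and 0 rose, where 11.0% of all genes fell and 8.15% rose, and the median was -0.50. This contrast shares the 10 µM libraries with the one before it, so values of both are set side by side and not compared.

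Among cyclins and CDK1 regulators, 5 of 6 genes fell at 20 µM, CCNA2 and CDK1 also with the block. CCNA2 had 90.3 CPM at 20 µM, against 228, 249 and 222 CPM at 10 µM (log2 fold change -1.39 ± 0.22 (SE), edgeR adjusted p = 0.00257), which is 29.3% of its control mean. CCNB1 had 88.5 CPM at 20 µM, against 185, 172 and 203 CPM at 10 µM (log2 fold change -1.09 ± 0.27 (SE), edgeR adjusted p = 0.0164, adjusted p with the block 0.121). CDK1, whose 10 µM libraries had not passed against controls, had 76.3 CPM at 20 µM, against 157, 193 and 176 CPM at 10 µM (log2 fold change -1.22 ± 0.21 (SE), edgeR adjusted p = 0.00361). CCNB2 at -0.85 and FOXM1 at -1.04 also fell (adjusted p with the block 0.0705 and 0.0566). CDC25C had 20.5 CPM at 20 µM, against 24.4, 24.3 and 23.8 CPM at 10 µM, a log2 fold change of -0.25 (adjusted p = 0.385) by edgeR, and so remained above every control at both doses.

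Among the kinases and checkpoint genes 3 of 7 fell, and 0 with the block. AURKA, BUB1B and TTK fell at 20 µM, with log2 fold changes of -0.98, -1.19 and -0.91 (adjusted p with the block 0.118, 0.0709 and 0.25). PLK1 had 92.4 CPM at 20 µM, against 152, 107 and 109 CPM at 10 µM, and AURKB 32.4 against 49.9, 37.7 and 37.8 CPM. Neither passed (-0.43 and -0.39, edgeR adjusted p = 0.329 and 0.257), and the 20 µM value of each lay close under its lowest 10 µM library. BUB1 and NEK2 had -1.02 and -0.70 and did not pass either (adjusted p = 0.0819 and 0.0707). In the group of the anaphase-promoting complex and its substrates, PTTG1 fell to 56.1 CPM (-0.75 on the log2 scale) and CDC20 to 91.9 CPM (-0.70). The block kept the call of PTTG1 and not that of CDC20, which was at -0.50 with it. UBE2C rose, with 4.10 CPM at 20 µM, against 1.58, 0.524 and 0.90 CPM at 10 µM (log2 fold change 2.01 ± 0.61 (SE), edgeR adjusted p = 0.0393), which the block did not keep (adjusted p = 0.283).

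Both genes of mitotic chromosomes and 5 of 7 motors and spindle proteins fell at 20 µM, and TOP2A had the most negative fold change of the 34. TOP2A had 241 CPM at 20 µM, against 654, 720.3 and 602 CPM at 10 µM (log2 fold change -1.47 ± 0.37 (SE), edgeR adjusted p = 0.018). MKI67 had 136 CPM at 20 µM, against 358, 356 and 286 CPM at 10 µM (log2 fold change -1.31 ± 0.31 (SE), edgeR adjusted p = 0.0135). HMMR had 43.7 CPM at 20 µM, against 93.3, 111 and 108 CPM at 10 µM (log2 fold change -1.27 ± 0.23 (SE), edgeR adjusted p = 0.00499). In each of these the 20 µM library also lay below all 4 controls. KIF11, NUSAP1, DLGAP5 and CKAP2 fell too, with log2 fold changes of -1.27, -0.93, -1.26 and -0.80, while TPX2 and KIF2C did not pass (-0.79 and -0.36, adjusted p = 0.0591 and 0.287). At the kinetochore CENPF, BIRC5 and NDC80 fell (-1.28, -1.17 and -0.68), while CENPE at -0.95 and CENPA at -0.33 did not pass, and CENPA was the only gene whose 20 µM value stayed within the control range. Of the midzone genes KIF23 and ECT2 fell (-0.81 and -0.63), while KIF20A at -0.99 and PRC1 at -0.35 did not pass. With the block the calls of DLGAP5, CKAP2 and CENPF were lost, at log2 fold changes of -0.66, -0.50 and -0.55. So were those of NDC80, KIF23 and ECT2, at -0.31, -0.41 and -0.36. TPX2, KIF20A and CENPE, like BUB1 and NEK2 above, did pass in DESeq2 and without control 1. Calls that were lost without 1 library were TTK (without 10 µM replicate 3, adjusted p = 0.0624), CDC20 (control 2 or 10 µM replicate 2, 0.0529 and 0.071) and CENPF (10 µM replicates 2 or 3, 0.0534 and 0.0597). The same held for NDC80 (control 4, 10 µM replicates 2 or 3, 0.0539 to 0.0727), KIF23 (10 µM replicates 2 or 3, 0.0753 and 0.0642), ECT2 (controls 3 or 4, 10 µM replicates 3 or 4, 0.0539 to 0.0686) and UBE2C (controls 2 or 4, 10 µM replicates 3 or 4, 0.0529 to 0.0958).

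The rest of the pathway was read from a list of 120 further G2 and mitosis genes, all tested. This list too was chosen with earlier results of these data known. In treated against control libraries 2 rose and 9 fell, where 7.47% of all genes tested rose and 6.69% fell, and with the block 27 fell, where 10.4% of all genes did. At 10 µM against control 4 rose and 16 fell, where 9.34% of all genes rose and 9.79% fell, and with the block 42 fell, where 15.2% did. Without the block the shares of this list that fell in these comparisons are near those of all genes. At 20 µM against 10 µM 3 rose and 57 fell, where 11.7% of all genes rose and 14.6% fell, and with the block 27 fell, where 11.0% did. The median log2 fold changes were -0.28, -0.16 and -0.63. Among regulators of CDK1, CDC25A, the phosphatase of the G1/S transition and G2, fell at 10 µM, with 67.3, 73.1 and 50.2 CPM against 94.8, 113, 117 and 102 CPM in controls (log2 fold change -0.75 ± 0.14 (SE), edgeR adjusted p = 0.00903). WEE1, the kinase that puts the inhibitory phosphate on CDK1, rose, with 125, 142 and 141 CPM at 10 µM against 98.7, 106, 102 and 105 CPM in controls (log2 fold change 0.40 ± 0.09 (SE), edgeR adjusted p = 0.0164). In both the groups did not overlap, and the 20 µM library went further, at 28.3 and 177 CPM. Cyclin F (CCNF) fell by 0.53 at 10 µM on the log2 scale.

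Of the 11 subunits of MuvB and DREAM, the complexes that read the CHR, MYBL2 (B-MYB, the activating subunit) fell, with 185, 169 and 134 CPM at 10 µM against 281, 229, 275 and 249.7 CPM in controls (log2 fold change -0.67 ± 0.13 (SE), edgeR adjusted p = 0.0101). RBL2 (p130, a repressive subunit) rose, with 82.7, 104 and 99.8 CPM at 10 µM against 58.0, 64.2, 61.6 and 56.7 CPM in controls (log2 fold change 0.66 ± 0.11 (SE), edgeR adjusted p = 0.00477), and E2F4, their E2F subunit, fell by 0.59 on the log2 scale. The counts of the next lists stand beside 9.79% of all genes lower and 9.34% higher at 10 µM, and with so few members they do not set a list apart from all genes. Of 25 checkpoint and anaphase-promoting complex genes 5 fell at 10 µM and 0 rose, led by UBE2S, which extends the complex's ubiquitin chains, at -0.71 (adjusted p = 0.00405), and TRIP13, which takes the checkpoint complex apart, at -0.58 (adjusted p = 0.011). Of 32 further centromere genes 4 fell, among them CENPW at -0.56 (adjusted p = 0.0108) and CENPT at -0.52 (adjusted p = 0.0217), and 1 rose. Of 17 condensin and cohesin genes sororin (CDCA5) fell at -0.47 (adjusted p = 0.0427) and STAG2 rose at 0.49 (adjusted p = 0.044). Of 23 other motor, spindle and cytokinesis genes FAM83D fell at -0.82 (adjusted p = 0.00703) and KNSTRN at -0.61 (adjusted p = 0.0445), all adjusted p by edgeR.

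A further list held 10 genes linked to cell cycle arrest or to recovery from it, and 8 were expressed enough to test. At 10 µM 6 of them rose and 0 fell, where 9.34% of all genes tested rose and 9.79% fell. The list was chosen with earlier results of these data known, so its direction is no independent evidence. CDKN1A had 44.2, 52.3 and 80.9 CPM at 10 µM, against 17.2, 5.32, 5.79 and 15.8 CPM in controls (log2 fold change 2.41 ± 0.43 (SE), edgeR adjusted p = 0.00733), and 604 CPM at 20 µM. The groups did not overlap, and the 20 µM library was the highest by far. CCNG2, an atypical cyclin of arrested cells, had 9.39, 10.7 and 15.7 CPM at 10 µM, against 2.60, 1.71, 0.672 and 2.59 CPM in controls (log2 fold change 2.65 ± 0.42 (SE), edgeR adjusted p = 0.00464). GADD45A, a stress-induced inhibitor of CDK1, had 200.5, 235 and 208 CPM at 10 µM, against 148, 112, 111 and 157 CPM in controls (log2 fold change 0.70 ± 0.15 (SE), edgeR adjusted p = 0.0129), and 349 CPM at 20 µM. GADD45B, a relative of GADD45A, and the antiproliferative gene BTG2 rose as well. At 20 µM against 10 µM, CDKN1A, GADD45A and GADD45B rose by edgeR, and the call of GADD45A was lost with the block.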

How the data were processed

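The counts are whole-number read counts per gene symbol, deposited by the authors as one table for 8 libraries, 4 treated with Lip-1 and 4 controls. The genome build was hg38 and the tools included HISAT2, StringTie, limma, DESeq2 and bcl2fastq 2.0, per the submitters' processing notes. The sources used here do not give their settings. The table was used as deposited. It holds 19447 symbols after removal of 9 lines that carry neither a gene name nor a count. Among low counts 2958 entries are 4 and only 401 are 1, so the counts carry a step that no source explains, and low values are uncertain.

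Counts were fitted in R 4.3.3 with edgeR 4.0.16 (filterByExpr, TMM scaling, quasi-likelihood test, two-sided, Benjamini-Hochberg adjustment over all genes tested, threshold 0.05). Treated against control used 2 groups. The 10 µM and 20 µM contrasts came from 1 fit of 3 dose groups, in which the single 20 µM library takes the spread of the others. Levels are CPM with the TMM factor, and shares of counts are without it. DESeq2 1.42.0 and limma 3.58.1 (voom) were alternatives, beside other scalings and filters, each library left out in turn, the replicate number as a block and the naming pattern as a covariate. Same-numbered treated and control libraries deviated together from their group means (correlations over genes 0.453, 0.251, 0.390 and 0.262 for numbers 1 to 4). Some libraries with unlike numbers but the same naming pattern also correlated (treated 3 with control 2 at 0.310, treated 2 with control 3 at 0.242, treated 1 with control 4 at 0.157), so the block and the naming pattern overlap. All these values use a treated mean that includes the 20 µM library. Within numbers 2 to 4 alone, the same-numbered values were 0.136, 0.229 and 0.417. Number 2 then stood little above treated 3 with control 2, at 0.127. The text names the calls among the 34 genes that the block changes. The scripts were checked on simulated counts. Libraries held 71151415 to 141307169 counts, so for most of these genes counting error is small beside the spread between libraries. The 34 genes and the other lists were chosen with earlier results of these data known. All 34 are named, and from the other lists at most the 3 genes with the smallest p per list and contrast, with CDKN1A.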

Additional observations from a re-analysis of the deposited data

Results flagged for a closer look

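PTTG1, which encodes securin, had 1 library apart among the 4 controls. Control 3 held 126 CPM and the other three 111 to 113 CPM, so the gap of control 3 to its nearest neighbour took 0.897 of the whole range, above the limit of Dixon's test for 4 samples. Chance alone marks about 1 in 20 groups, and 34 genes were examined. Without control 3, PTTG1 did not pass the test at 10 µM.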

How the results depend on the processing

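With the replicate block, treated against control called 2815 genes and 12 of the 34, at 10 µM against control 4657 genes and 17 of the 34, and at 20 µM against 10 µM 9 of the 34. With the naming pattern as a covariate, treated against control gave 3348 genes and 13 of the 34, and 10 µM against control 4665 genes and 16 of the 34. DESeq2 called 3408 genes and 9 of the 34 treated against control. Leaving out each library in turn gave 64 to 3021 genes and 0 to 9 of the 34 treated against control, with a median over the 34 of -0.50 to -0.21, 1364 to 3021 genes and 1 to 12 of the 34 at 10 µM, and 2857 to 4300 genes and 17 to 28 of the 34 at 20 µM against 10 µM. Upper-quartile scaling split the 1875 genes called treated against control into 1147 higher and 728 lower, against 979 and 876 with TMM. CPM without the TMM factor, an alternative added after the data were seen, left 6 of 8 genes wholly below the controls (10.5% of all genes treated against control, 12.0% at 10 µM), PTTG1 and PRC1 being lost. The values within letter-named and within digit-named libraries were also added then.

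No called gene changed sign. Signs of uncalled genes near 0 turned, on the log2 scale. Treated against control, CKAP2 was -0.013 with RLE scaling and with DESeq2, -0.00074 without a filter, -0.024 with limma-voom and -0.024 with the replicate block, and HMMR was 0.026 with upper-quartile scaling. At 10 µM CENPF was -0.014 with RLE scaling and with DESeq2, -0.13 with the block and -0.036 with the covariate, CENPE -0.11 with the block and -0.016 with the covariate, NDC80 -0.047 with the block, and ECT2 0.00076 with upper-quartile scaling. At 20 µM against 10 µM CENPA was 0.20 with the block. Leaving out single libraries turned treated against control CKAP2 (-0.090 to 0.16), CENPE (-0.33 to 0.064), HMMR (-0.17 to 0.19), TTK (-0.21 to 0.095), UBE2C (-0.39 to 0.72), CENPF (-0.37 to 0.0022) and NDC80 (-0.19 to 0.027). At 10 µM it turned CENPE (-0.15 to 0.25), CENPF (-0.15 to 0.15), NDC80 (-0.054 to 0.10), BUB1 (-0.27 to 0.022), CENPA (-0.22 to 0.031) and ECT2 (-0.098 to 0.029). The cause of these shifts was not tested.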
